A study of Mus musculus with 22 samples.

Results

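The replication-dependent histone genes of the mouse were examined across sorted cells of the colon crypt. They were taken as all genes whose symbol begins with Hist1h, Hist2h, Hist3h or Hist4h, which gave 68 of the 24421 genes counted. By the name, 6 encode the linker histone H1, 18 encode H2a, 19 encode H2b, 12 encode H3 and 13 encode H4. On the mm10 build, 54 lie on chromosome 13 (the Hist1 cluster), 10 on chromosome 3 (Hist2), 3 on chromosome 11 (Hist3) and 1 on chromosome 6 (Hist4).

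RNA-seq had been done on 22 libraries of 6 cell types from wild type male C57BL/6N mice aged 5 to 7 weeks, with no other genotype or treatment. All cells were gated as Epcam+, Cd31- and Cd45-. Further gates gave stem cells (Stem, Cd44 highest, Cd24 low, Ckit-, 3 libraries), absorptive progenitors (AbsPro, Cd44 med/hi, Cd24 low, Ckit-, 3) and a mix of secretory progenitors, deep crypt secretory cells and goblet cells (SecPDG, Cd44 hi, Cd24 med, Ckit med, 4). They also gave tuft cells (Ckit+, Cd24 hi, 5), enterocytes (Cd44 low/-, Cd24-, 5) and enteroendocrine cells (EEC, Cd44 low/-, Cd24+, 2). Each library held at least 2500 sorted cells, and Stem and AbsPro libraries came from 1 mouse each, whereas every library of the other cell types pooled several. Pooling and cell type therefore cannot be told apart in a comparison of those cell types with Stem or AbsPro.

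Histones are the proteins on which DNA is wound. H2A, H2B, H3 and H4 form the core of the nucleosome, and H1 binds the linker DNA between cores. The replication-dependent genes are transcribed mainly in S phase, when new DNA has to be packaged. Their mRNAs as a rule have no introns and no poly(A) tail: they end in a short stem-loop that is bound by the stem-loop binding protein Slbp, and they are broken down when DNA synthesis stops. In the colon crypt, stem cells and progenitors divide, and mature absorptive and secretory cells have left the cell cycle. Some members are also known to give polyadenylated transcripts outside S phase, among them Hist1h1c, Hist1h2bc, Hist2h2be and Hist3h2a.

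The stem-loop is shown because it is the feature that sets these transcripts apart and because it bears on how their RNA is captured. It was searched in GENCODE vM21 transcripts as a stem of 6 bases, a loop of 4 bases and the stem's reverse complement. The stem had to start with GG and end with T, and the loop had to read T, then C or T, then T, then any base. A match was found in 46 of the 68 members and in 22 of 55271 other genes (0.04%). Some members without a match have short annotated transcripts, such as Hist1h2bl (381 bases, 473 in RefSeq) and Hist1h4k (312 bases, 409 in RefSeq). The search may not have reached their 3′ ends, so a missing match does not show that the stem-loop is absent. In the windows below, read 5′ to 3′ with stem and loop in capitals, Hist1h1c, Hist2h2ac, Hist1h2bb, Hist1h3b, Hist1h3c, Hist1h4d and Hist1h4b stand for the 5 histone types.
Hist1h1c: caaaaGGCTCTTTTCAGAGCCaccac
Hist2h2ac: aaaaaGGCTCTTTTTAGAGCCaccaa
Hist1h2bb: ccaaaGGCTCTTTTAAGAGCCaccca
Hist1h3b: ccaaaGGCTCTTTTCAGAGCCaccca
Hist1h3c: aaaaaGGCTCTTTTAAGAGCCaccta
Hist1h4d: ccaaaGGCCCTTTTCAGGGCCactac
Hist1h4b: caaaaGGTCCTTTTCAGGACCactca
The run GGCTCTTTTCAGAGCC was carried by 3 H1, 10 H2a, 8 H2b and 5 H3 genes. H4 genes had other stems: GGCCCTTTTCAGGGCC in 7 and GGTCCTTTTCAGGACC in 2. The annotated transcript of Hist1h3b ran on for 51 bases after the stem-loop, whereas that of Hist1h4d ran on for 770 and that of Hist1h1c for 840. The sources used here did not state how cDNA synthesis was primed, so levels are those of the RNA that the library method captured.

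The promoters, from 250 bases before to 50 after each start in RefSeq's GRCm38.p6 annotation, were found for 62 members. The letters CCAAT, on either strand, were present in 85.5% of them and in 37.8% of 26963 other promoters. All H1, H2a, H2b and H3 promoters held CCAAT, whereas 3 of 12 H4 promoters did. TATAAA was present in 56.5% against 14.1%, and the octamer ATTTGCAT in 21.0% against 1.7%. All 13 members with the octamer were H2a or H2b genes (7 and 6). The pairs below are shown because a divergent H2a and H2b gene share a single octamer window, in capitals; each line gives the plus strand as the H2b gene reads it.
Hist1h2bk and Hist1h2ah, chr13:22035782-22035807: tttcactttATTTGCATacgaagttc
Hist1h2bg and Hist1h2ae, chr13:23571332-23571357: gagtcccttATTTGCATagaacctct
A match is a description of the letters only.

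Libraries differed in depth and in the share of reads outside genes, and these values stand beside every result below. Counts on genes ran from 4122122 to 22462518 per library. Reads outside genes made up 45.6 to 48.9% of a Stem library and 45.9 to 49.8% of an AbsPro library. The range was 41.3 to 47.2% for SecPDG, 43.9 to 68.4% for the tuft libraries and 67.2 to 83.3% for enterocytes, and EEC 1 had 89.9% and EEC 2 had 64.9%. Families of genes that should be silent in these cells, such as olfactory receptors, gave 0.149 to 0.274 normalized counts per kilobase in Stem and 10.2 in EEC 1. Set against each member's own level, that background stayed under 20% in all cell types but the EECs, where it reached 20% or more for 8 of 53 members, 2 of them at 0 in both libraries. The 6 stem markers summed highest in Stem (21013 to 26392 normalized counts, and 1394 to 2245 in enterocytes), and the 5 EEC markers summed highest in EECs (596910 and 1714716). In tuft libraries the 5 tuft markers summed to 22483 to 59877, but the 7 goblet markers summed to 687887 to 1089546, overlapping SecPDG (706948 to 3006815). The 5 enterocyte markers were not highest in enterocytes. They summed to 46647 to 67756 there, to 62049 to 95516 in AbsPro and to 20936 and 131375 in the 2 EEC libraries. The goblet markers summed to 235867 to 689397 in enterocytes. None of the marker lists had all its genes at 0 in any cell type. The part of background and of other cells in the differences between cell types was not tested.

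Of the 68 members, 59 had enough counts to be tested and 53 of these also averaged 50 or more normalized counts across the 22 libraries (H1 5, H2a 13, H2b 13, H3 10, H4 12). A normalized count is a read count scaled by library size and TMM factor to the average library. The 6 members tested with a lower mean were Hist1h1t, Hist1h2aa, Hist1h2ba, Hist1h2bp, Hist3h2ba and Hist3h2bb-ps. The 9 members not tested were Hist1h2ao, Hist1h2ap, Hist1h2bq, Hist1h2br, Hist1h4m, Hist2h2aa1, Hist2h2aa2, Hist2h3c1 and Hist2h3c2, of which 7 had no count in any library. Between 32.9 and 100% of the 100-base windows of these 9 genes occur in another gene, and reads that match several places were not counted.

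Summed over all members, the histone genes were highest in SecPDG and Stem and lowest in EECs and enterocytes. They took 0.567%, 0.818% and 0.629% of the counts on genes in the 3 Stem libraries and 0.505%, 0.64%, 0.572% and 0.808% in the 4 SecPDG libraries. The AbsPro libraries gave 0.255%, 0.533% and 0.256%, and the tuft libraries 0.138%, 0.358%, 0.215%, 0.279% and 0.377%. Both groups lay wholly below Stem. Enterocytes gave 0.0909%, 0.119%, 0.226%, 0.178% and 0.257%, and the EECs 0.204% and 0.0785%, which overlapped each other and the lower tuft libraries.

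On the scale of summed normalized counts the means were 99128 ± 16450 in Stem (SD, n = 3), 53473 ± 23529 in AbsPro (n = 3), 112619 ± 36685 in SecPDG (n = 4), 39146 ± 17528 for the tuft libraries (n = 5), 19859 ± 11062 for enterocytes (n = 5) and 13842 ± 1892 for EECs (n = 2). Stem was thus 1.85-fold above AbsPro, 2.53-fold above tuft cells, 4.99-fold above enterocytes and 7.16-fold above EECs, with no overlap of libraries in any of these. SecPDG and Stem overlapped. In AbsPro, replicate 2 stood at 80641 and the other libraries at 39878 and 39899. In such bulk samples, fewer cells of a dividing type and less histone RNA per cell cannot be told apart.

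**Figure D1:**
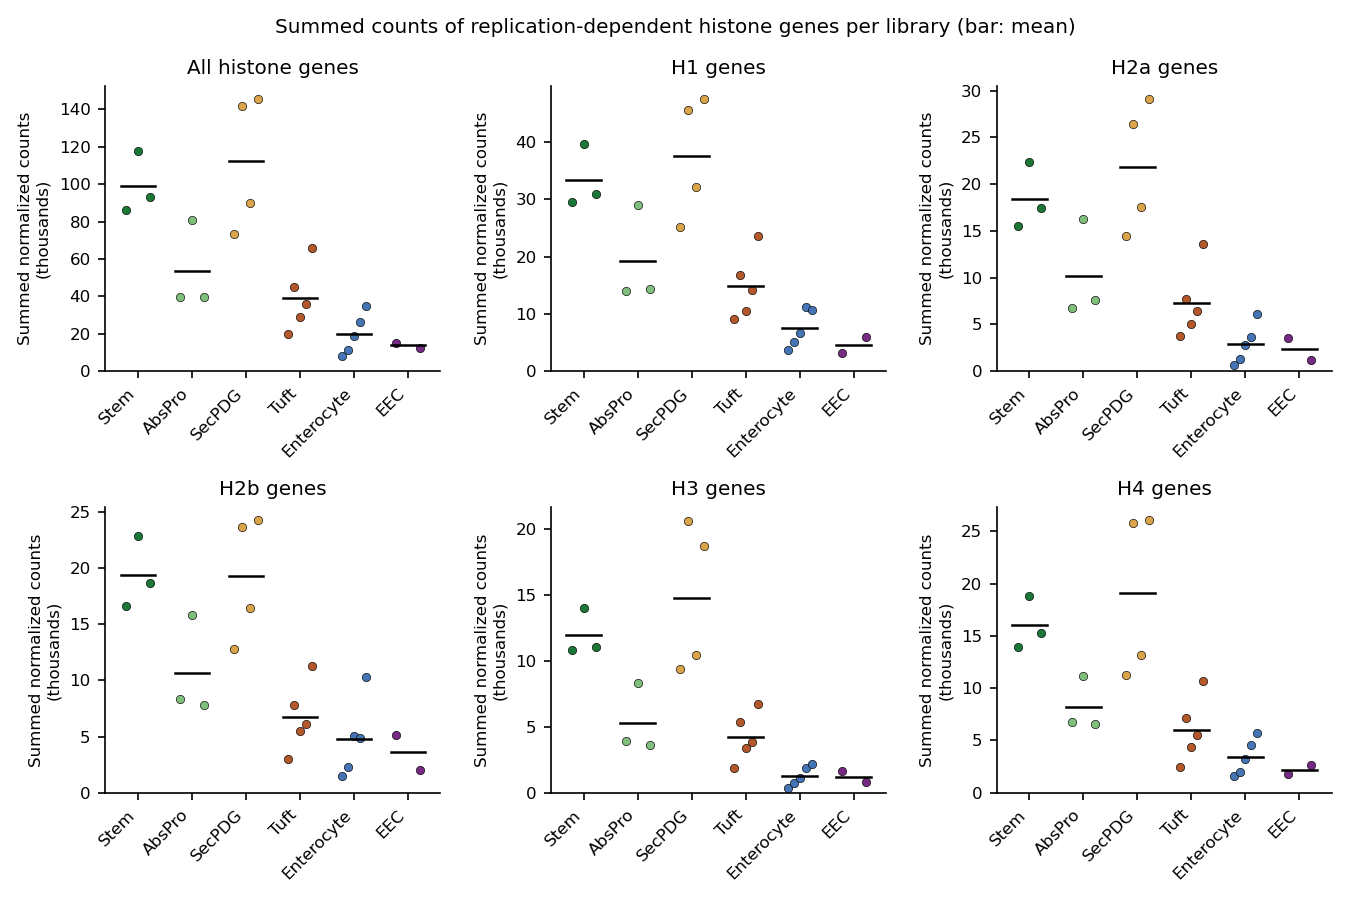
Summed normalized counts (vertical axis, in kilo-counts) of all 68 histone genes and of each histone type (panels) in each library (points) of the 6 cell types, with the mean as a bar. The means are highest in SecPDG and Stem, whose libraries overlap, and AbsPro 2 (80641) lies above SecPDG 1 (73144), while the 5 enterocyte libraries (7917 to 35067 for all genes) and 2 EEC libraries (12505 and 15180) lie below every Stem library (86359 to 117691).

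The enterocyte libraries were not alike. Replicates 1, 2 and 3, with 81.3 to 83.3% of reads outside genes, had histone sums of 7917, 11293 and 18757, and replicates 4 and 5, with 67.2% and 69.2%, had 26260 and 35067. All 5 lay below the lowest AbsPro library. Among tuft libraries, replicate 5 had the smallest share of reads outside genes (43.9%, below every Stem library) and the highest histone sum (65918), which was still below the lowest Stem library (86359). The other tuft libraries did not keep this order. Replicate 1 had the next smallest share (59.9%) and the lowest sum (20081), and replicate 2 the largest share (68.4%) and the next highest sum (44835). EEC 1 had 89.9% and 15180, and EEC 2 had 64.9% and 12505. A link between share and sum was not tested.

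All 5 histone types had lower sums in enterocytes than in Stem, and H3 stood lowest relative to Stem. The ratio of the enterocyte to the Stem mean was 0.104 for H3, 0.159 for H2a, 0.213 for H4, 0.224 for H1 and 0.248 for H2b. H3 made up 12.1% ± 0.403 of the members' counts in Stem and 6.02% ± 0.858 in enterocytes (SD, n = 3 and 5). H1 made up 33.7% ± 0.544 and 40.1% ± 6.9, with overlap between the libraries.

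Each comparison was read from a single edgeR quasi-likelihood fit to the 22 libraries and 22781 genes. A gene counted as called when its p, adjusted by Benjamini-Hochberg, was below 0.01 and it averaged 50 or more normalized counts. The comparisons with Stem share the same 3 Stem libraries, so their results are not independent of each other. No member was called higher in any of the 7 comparisons, nor did any of the 53 rise at an unadjusted p under 0.05, and DESeq2 called none higher. Against Stem, the share of all genes tested that was called higher was 0.496% for AbsPro, 3.38% for SecPDG, 7.83% for the tuft libraries, 10.7% for enterocytes and 10.8% for EECs. It was 8.21% in enterocytes against AbsPro and 3.01% in tuft cells against SecPDG.

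Against Stem, AbsPro had no member called lower, where 0.0922% of all genes were, and DESeq2 called none. At an unadjusted p under 0.05 in edgeR's test, 34 of the 53 members were lower, beside 5.37% of the 13188 genes with a mean of at least 50. At an adjusted p under 0.05 there were 2, Hist1h3c (log2 fold change -1.52 ± 0.35 SE, adjusted p = 0.011) and Hist1h2ag (-1.64 ± 0.41, adjusted p = 0.018). The median log2 fold change of the 53 members was -0.98, with 0.04 over all genes, and in 30 members all AbsPro libraries lay below all Stem libraries, as in 10.5% of all genes with such a mean. Fitted on Stem and AbsPro libraries alone, the test called 10 members lower, where 1.07% of all genes were.

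In SecPDG, no member was called lower than in Stem by edgeR or DESeq2 (1.6% of all genes were), and none reached an unadjusted p of 0.05. The members' median log2 fold change was 0.19, with -0.06 over all genes.

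In tuft cells, 38 members were called lower than in Stem, where 4.23% of all genes were: 2 H1, 7 H2a, 11 H2b, 10 H3 and 8 H4 genes. This is 71.7% of the 53 members with a mean of at least 50, beside 7.31% of the 13188 genes with such a mean. The median log2 fold change was -1.44, with -0.09 over all genes, and in 42 members all tuft libraries lay below all Stem libraries, as in 18.2% of the genes with such a mean. This count rested on the form of the test. The older form of edgeR's test called 4 members (2.03% of all genes), Hist1h3i, Hist1h4h, Hist2h4 and Hist4h4, and DESeq2 called 9 (4.35%). Without Stem 2 it was 15 members, and without Tuft 1 it was 25.

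In enterocytes, 49 members were called lower than in Stem, where 11.5% of all genes were: 5 H1, 12 H2a, 11 H2b, 10 H3 and 11 H4 genes. Of members with a mean of at least 50 this is 92.5%, beside 19.8% of all such genes. The median was -2.81, with -0.30 over all genes, and in 50 members all enterocyte libraries lay below all Stem libraries, as in 26.0% of such genes. In EECs 46 members were called lower, where 9.14% of all genes were, with a median of -3.46 and -0.30 over all genes. Refits with other tools, scalings, filters or libraries gave 40 to 51 members in enterocytes and 31 to 48 in EECs. With DESeq2's size factors the median of all genes moved to 0.35 in enterocytes and 0.48 in EECs, and that of the members to -2.30 and -2.70.

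Relative to AbsPro, enterocytes had 39 members called lower, where 7.98% of all genes were, and the median was -1.73, with -0.38 over all genes. The older form of the test called 23 (3.18% of all genes) and DESeq2 21 (3.26%). Without AbsPro 2 it was 15. Relative to SecPDG, tuft cells had 43 members called lower, where 0.347% of all genes were, so that 43 of the 79 genes called lower were histone genes. The older form called 4 (0.0351%), Hist1h2ac, Hist1h3f, Hist1h3i and Hist1h4b, and DESeq2 17 (0.65%). Without SecPDG 4 it was 17 members, without Tuft 1 it was 25 and without Tuft 3 it was 27.

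**Figure D2:**
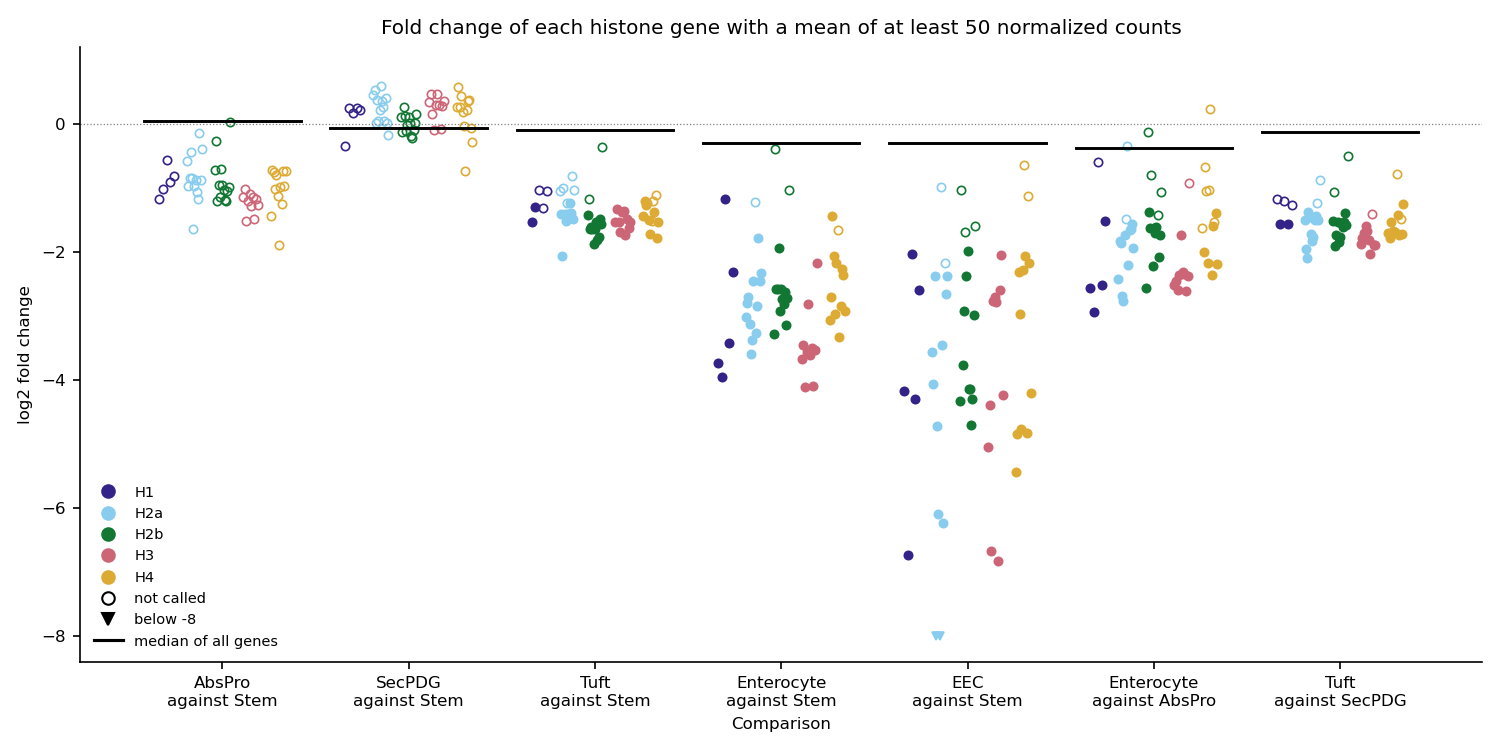
The log2 fold change (vertical axis) of each of the 53 histone genes with a mean of at least 50 normalized counts in the 7 comparisons, coloured by histone type, with open points for genes not called. Triangles mark genes at 0 in a group and are drawn near the lower end of the axis, not at their fitted value or bound. Members lie around 0 in SecPDG (median 0.19) and mostly below -2 in enterocytes and EECs against Stem (medians -2.81 and -3.46).

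Across tuft cells, enterocytes and EECs, 37 of the 53 members were called lower than Stem in all of them, beside 3.84% of the genes with a mean of at least 50. These comparisons share the Stem libraries, and the older form of the test called 4 members in all of them, beside 1.53%. Only 3 of the 53 were called in none of the 7 comparisons, Hist1h2bc, Hist1h4i and Hist2h2be.

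The 5 somatic linker histones differed in how far they fell, from -1.17 to -3.95 on the log2 scale in enterocytes against Stem. Hist1h1b (H1.5) had 2917, 4948 and 3620 normalized counts in Stem and 1111, 3265 and 1324 in AbsPro. In enterocytes it had 114, 184, 89, 619 and 210, and in the EECs 67 and 15. Every enterocyte and EEC library lay below every Stem and AbsPro library, and edgeR gave a log2 fold change of -3.95 ± 0.4 (adjusted p = 2.8e-11) for enterocytes and -6.73 ± 0.78 (7.2e-10) for EECs against Stem. In SecPDG it stood at 3653, 5462, 3385 and 5766, and in tuft cells at 1067, 1710, 1210, 1371 and 2355, which were called lower than Stem (-1.3 ± 0.35, adjusted p = 0.0038).

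Hist1h1c (H1.2; chr13:23738808-23740367, plus strand) behaved differently. It had 9417, 11297 and 9734 in Stem, 5479, 10139 and 4854 in AbsPro, and 7818, 12891, 10132 and 14827 in SecPDG. Tuft cells had 3171, 5473, 3281, 4857 and 8020, enterocytes 2279, 2751, 4726, 5827 and 6908, and EECs 2117 and 2848. All enterocyte libraries were below all Stem libraries but overlapped those of AbsPro and tuft cells. Its log2 fold change against Stem was -1.17 ± 0.37 in enterocytes (adjusted p = 0.006) and -2.03 ± 0.51 in EECs (0.0011), and against AbsPro -0.6 ± 0.37 (0.16).

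The other linker histones lay between these in enterocytes. Hist1h1a (H1.1) was at -3.73 ± 0.39 (adjusted p = 1.2e-10), Hist1h1d (H1.3) at -3.42 ± 0.42 (7.8e-09) and Hist1h1e (H1.4) at -2.31 ± 0.38 (2.5e-06), by edgeR's test against Stem. In GENCODE vM21 the span of Hist1h1e (chr13:23620629-23622558) overlaps that of Hist1h2be on the same strand. In RefSeq it does not: Hist1h1e spans 23621777 to 23622558 and Hist1h2be ends at 23621124. Which spans the deposited counts used was not examined, so reads there may not be assigned to either gene with certainty.

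Compared per kilobase of RefSeq transcript, Hist1h1c made up 32.1% ± 1.89 of the H1 level in Stem and 62.3% ± 7.71 in enterocytes (SD, n = 3 and 5), and 70.0% in EEC 1 and 50% in EEC 2. The lowest enterocyte library (53.4%) lay above the highest Stem library (33.4%). The mean was 32.0% in SecPDG, 35.0% in tuft cells and 37.5% in AbsPro. Hist1h1b had a mean share of 10.9% in Stem and 2.92% in enterocytes, with 2.02% in EEC 1 and 0.234% in EEC 2. Hist1h1d had 23.1% in Stem and 9.30% in enterocytes, and its 2 EEC libraries stood far apart, at 1.84% in EEC 1 and 11.3% in EEC 2. These shares are descriptions and were not tested. RefSeq's Hist1h1c is 725 bases long and GENCODE's 1560, so the shares would be set at other values by another annotation, with the same lengths in every library.

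**Figure D3:**
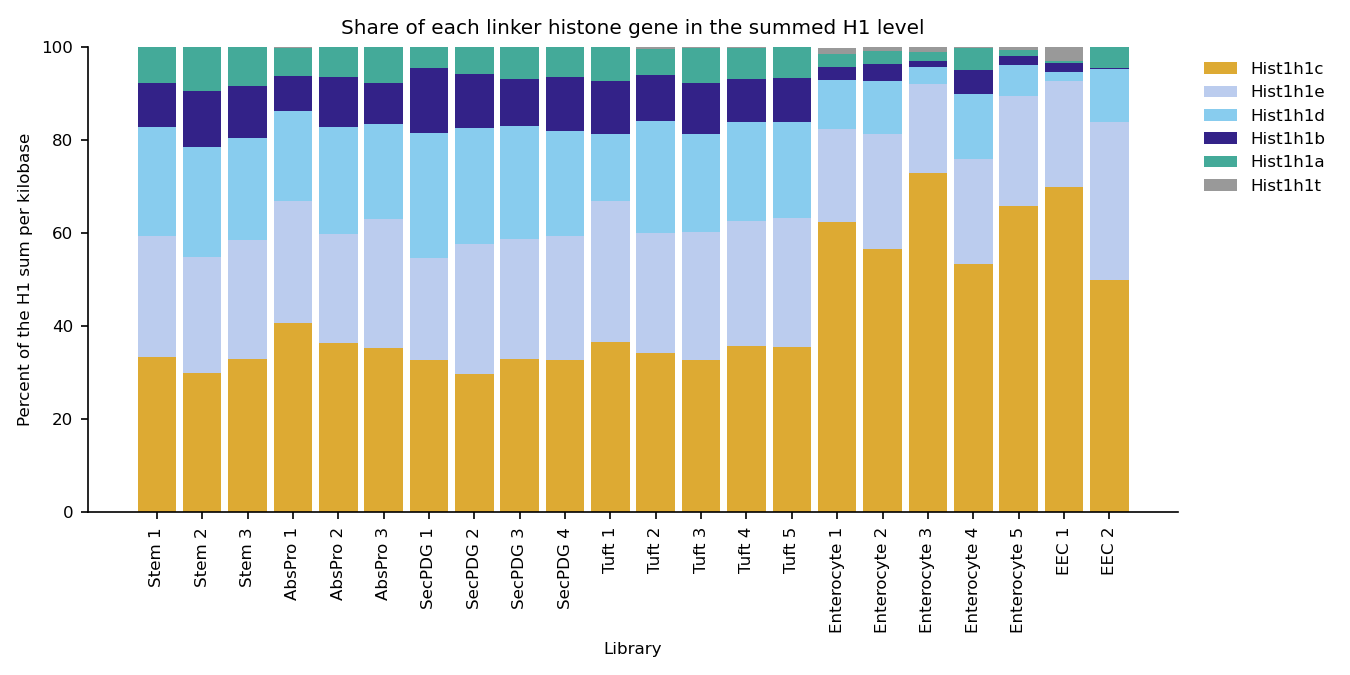
Share of each H1 gene in the summed H1 level per kilobase (percent, vertical axis) in each of the 22 libraries. Hist1h1c takes 30.0 to 33.4% in Stem libraries and 53.4 to 73.0% in enterocyte libraries, while the shares of Hist1h1b and Hist1h1d are smaller in enterocytes.

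Of the H2a genes, Hist1h2ak, Hist2h2ac and Hist1h2af had the highest mean counts. Hist1h2ak had 3071, 3793 and 3092 normalized counts in Stem, 91, 166, 345, 505 and 616 in enterocytes, and 484 and 155 in EECs. It was called lower in enterocytes (log2 fold change -3.26 ± 0.38, adjusted p = 2.1e-09) and in EECs (-3.46 ± 0.57, 2.8e-06), with no overlap. Hist1h2af was lower still in enterocytes (-3.59 ± 0.41, 7.2e-10), and was the H2a gene with the largest decrease from AbsPro to enterocytes (-2.76 ± 0.41, adjusted p = 2.6e-06).

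Hist1h2ae, which shares an octamer window with Hist1h2bg (printed above), had 724, 738 and 722 in Stem and 215, 969 and 428 in AbsPro. It had 26, 46, 44, 138 and 161 in enterocytes and was at 0 in both EEC libraries. With a floor of 3 counts over the 2 EEC libraries, it was at least 334-fold lower there than in Stem. Hist1h2ah, with 188, 504 and 361 in Stem, was also at 0 in both and, by the same floor, at least 161-fold lower. That floor does not cover the spread between libraries. Hist1h2ah ran from 0 to 331 in tuft libraries and from 0 to 120 in enterocytes, and 87.9% of its windows occur in other genes. Its bound is therefore uncertain. The partners of Hist1h2ae and Hist1h2ah across the octamer were not at 0 in EECs: Hist1h2bg had 1016 and 175 and Hist1h2bk 69 and 34. In enterocytes against Stem, Hist1h2ae was at -3.13 ± 0.44 and Hist1h2bg at -1.94 ± 0.42, and Hist1h2ah at -2.45 ± 0.57 and Hist1h2bk at -2.74 ± 0.4, and all 4 were called lower. The 11 members with the octamer and a mean of at least 50 had a median of -2.72 in enterocytes against Stem, and the 13 other H2a and H2b members with a promoter -2.81. In EECs against Stem the medians were -4.07 and -3.46. These differences were not tested.

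Hist1h2ai was the 1 H2a gene with a mean of at least 50 that was not called in enterocytes, and it was not called in EECs either. Its counts in Stem were 1081, 1978 and 1365. In enterocytes they were 76, 139, 833, 357 and 1782, and in EECs 1184 and 353, so the libraries overlapped (log2 fold change -1.22 ± 0.47, adjusted p = 0.021, in enterocytes). Its share of the H2a level per kilobase went from 8.71% in Stem to 19.4% in enterocytes, where it ranged from 10.6 to 31.9%. In 24 of the 68 members 50% or more of the windows occur in other genes, so reads of near-identical members may be lost or misplaced. With only the 37 members under 50% shared, 34 were called lower in enterocytes, and the median was -2.72.

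In enterocytes most H2b genes fell like the H2a genes, and Hist1h2bc did not. Hist2h2bb had 3286, 5042 and 3762 in Stem and 123, 266, 561, 770 and 1351 in enterocytes (-2.72 ± 0.4, adjusted p = 4.1e-07). Hist1h2bn gave -3.14 ± 0.39 (1.0e-08). In tuft cells the largest decreases from Stem were those of the H2a gene Hist1h2ad (-2.07 ± 0.47, adjusted p = 7.3e-04) and the H2b genes Hist1h2bh (-1.87 ± 0.41, 6.3e-04) and Hist1h2bl (-1.81 ± 0.38, 3.3e-04).

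Hist1h2bc, one of the members with polyadenylated transcripts, had 2108, 3253 and 3129 in Stem, 2399, 2716 and 1904 in AbsPro, and 1636, 3367, 2063 and 3393 in SecPDG. Tuft cells had 735, 1169, 1217, 1056 and 2019. Enterocytes had 701, 1059, 2562, 2005 and 4378, and EECs 1858 and 931. The enterocyte libraries spanned the Stem range, with replicate 5 above it, and the gene was not called (-0.4 ± 0.36, adjusted p = 0.32). All tuft and EEC libraries lay below all Stem libraries, and edgeR's test did not call the gene there either. It gave -1.18 ± 0.36 (adjusted p = 0.011) in tuft cells and -1.04 ± 0.48 (0.068) in EECs for Hist1h2bc. Its share of the H2b level per kilobase was 7.24% in Stem, 12.4% in AbsPro, 29.0% in enterocytes (24.9 to 32.8%) and 24.1% in EECs.

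The other members known for polyadenylated transcripts were not alike. Hist2h2be had 174, 161 and 203 in Stem and 105, 69, 43, 116 and 109 in enterocytes, which did not overlap but missed the threshold (-1.04 ± 0.47, adjusted p = 0.051). Hist3h2a had 340, 890 and 629 in Stem and 63, 142, 87, 168 and 154 in enterocytes and was called lower (-2.33 ± 0.38, 2.8e-06). The members were also set side by side by the annotated transcript. The 16 testable members with over 300 bases after the stem-loop had a median of -2.69 in enterocytes and 15 were called lower. The 16 with 60 or fewer bases had a median of -2.73 and all were called. In the same order, the medians against Stem were -2.65 and -4.24 in EECs, with 15 called lower in each set. In tuft cells they were -1.37 and -1.52, with 9 and 14 called lower. The differences between the sets were not tested.

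All 10 H3 genes with a mean of at least 50 were called lower than Stem in each of the 3 mature types (EECs, enterocytes and tuft cells). Hist1h3b had 2005, 3149 and 2527 normalized counts in Stem, 723, 2347 and 753 in AbsPro, and 2398, 4921, 2314 and 4509 in SecPDG. It had 441, 1338, 798, 959 and 1521 in tuft cells, 48, 126, 166, 346 and 482 in enterocytes, and 213 and 55 in EECs. Each tuft, enterocyte and EEC library lay below each Stem library, with log2 fold changes of -1.33 ± 0.37 (adjusted p = 0.0053), -3.45 ± 0.42 (3.4e-09) and -4.39 ± 0.67 (6.3e-07).

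Hist1h3c had the largest decrease of all members in enterocytes. It had 1149, 1134 and 875 in Stem, 291, 481 and 334 in AbsPro, 16, 46, 39, 123 and 72 in enterocytes, and 25 and 0 in EECs. AbsPro and enterocytes both lay below Stem without overlap, and the enterocyte value was -4.11 ± 0.4 (adjusted p = 8.0e-12). Hist1h3h came next (-4.1 ± 0.56, 7.1e-08), with 614, 240 and 223 in Stem and 3, 9, 20, 50 and 17 in enterocytes. Hist1h3g had the largest decrease among the H3 genes in EECs (-6.83 ± 1.18, 5.4e-06), with 14 and 0 normalized counts there and 567, 938 and 528 in Stem.

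The H4 genes fell less far than H3 in enterocytes, with medians of -2.54 and -3.55. Hist1h4d had 4595, 5946 and 4973 in Stem, 3656, 9709, 4794 and 9899 in SecPDG, and 562, 678, 1210, 1646 and 2060 in enterocytes (-2.07 ± 0.39, adjusted p = 2.5e-05). Hist1h4h (-2.17 ± 0.37) and Hist1h4c (-1.44 ± 0.34) were also called lower there. Hist4h4, the member alone on chromosome 6, had 806, 1261 and 1194 in Stem and 67, 104, 82, 293 and 163 in enterocytes (-2.92 ± 0.38, 3.4e-08). In enterocytes the 45 testable members of the Hist1 cluster had a median of -2.85 and the 6 of the Hist2 cluster -2.27. In EECs against Stem Hist4h4 was at -4.21, and the cluster medians were -3.76 and -2.41. A part of genomic place was not tested. Hist1h4i, with a mean of 56.4, had 174, 93 and 89 in Stem and 51, 46, 13, 50 and 26 in enterocytes and missed the threshold (-1.66 ± 0.64, adjusted p = 0.024).

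**Figure D4:**
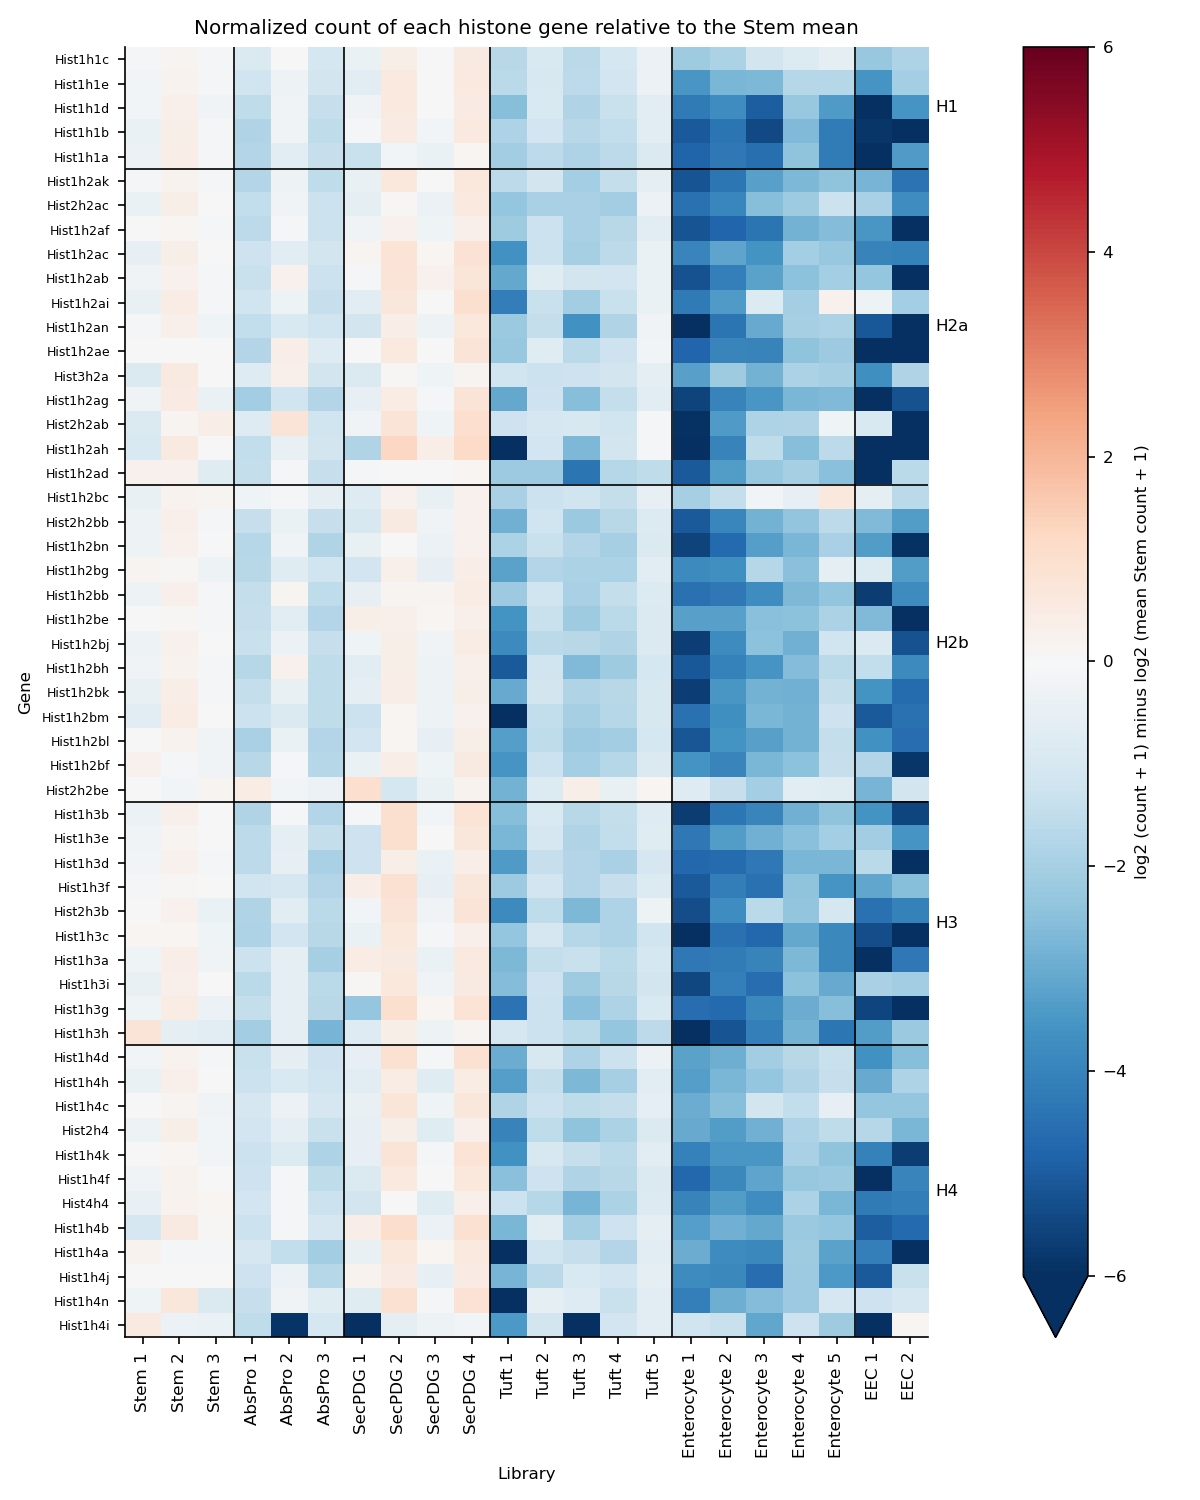
Colour gives log2 (normalized count + 1) of each of the 53 histone genes with a mean of at least 50 (rows, grouped by type) minus log2 of the Stem mean + 1, in each of the 22 libraries (columns). Stem and SecPDG columns are near 0, and enterocyte and EEC columns are low in nearly all rows, with Hist1h2bc among the exceptions.

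The members known from germ cells were near the floor. Hist1h1t had 15, 3 and 7 normalized counts in Stem, 54, 47, 77, 18 and 61 in enterocytes, and 94 and 0 in EECs. Hist1h2aa had 0, 1 and 0 in Stem, 16, 25, 10, 25 and 3 in enterocytes, and 42 and 24 in EECs. By edgeR's test both passed the adjusted p in enterocytes against Stem (Hist1h1t 2.65 ± 0.89, adjusted p = 0.0092, and Hist1h2aa 4.82 ± 1.62, adjusted p = 0.0099) but had means of 24.4 and 7.6 over all libraries, under the minimum of 50. These rises went with the counts of the silent gene families, 2.22 to 6.53 per kilobase in enterocytes and 0.149 to 0.274 in Stem, whose part in them was not tested. Hist1h2ba stayed at 5 or fewer in Stem and enterocytes and was highest in tuft cells (mean 5.56, highest library 13).

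Genes that make, carry or stand in for histones were counted in 4 lists. Each count is to be read beside the share called lower among the 13188 genes with a mean of at least 50. With Stem as the reference, that share was 19.8% for enterocytes, 15.8% for EECs and 7.31% for the tuft libraries. For SecPDG it was 2.76%, and for AbsPro 0.159%. Enterocytes against AbsPro had 13.8%, and the tuft libraries against SecPDG 0.599%. Of 12 genes of histone mRNA synthesis and 3′ end processing, none was called in AbsPro, SecPDG or tuft cells against Stem, or in tuft cells against SecPDG. There were 8 called lower in enterocytes and 6 in EECs against Stem, and 4 in enterocytes against AbsPro (Cpsf2, Sympk, Cstf2 and Srrt). Slbp, which binds the stem-loop, had 1404, 1388 and 1579 in Stem, 316, 352, 594, 675 and 1364 in enterocytes and 284 and 289 in EECs (-1.15 ± 0.32, adjusted p = 0.0022, and -2.35 ± 0.48, 8.8e-05). Npat, a coactivator of histone gene transcription, was lower in enterocytes (-0.96 ± 0.31, 0.0075), and Casp8ap2 was not called (-0.7 ± 0.29, 0.033). Cstf2, a cleavage factor, had the largest decrease in this list (-1.85 ± 0.29 in enterocytes).

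Of 15 histone chaperone and supply genes, none was called in AbsPro against Stem, 1 was lower in SecPDG (Tonsl, which binds new H4, -1.28 ± 0.3, adjusted p = 0.0018), 7 in the tuft libraries, 14 in enterocytes and 10 in EECs. In enterocytes against AbsPro 7 were lower, and in tuft cells against SecPDG none. In tuft cells against Stem Asf1b, an H3-H4 chaperone, was at -1.6 ± 0.37 (0.0011), Chaf1a, the large subunit of CAF-1, at -1.5 ± 0.31 (2.2e-04) and Nasp, which keeps a soluble histone pool, at -1.4 ± 0.29 (2.8e-04). In enterocytes they were at -2.06 ± 0.4, -2.45 ± 0.33 and -2.01 ± 0.3, and Nap1l1, an H2A-H2B chaperone, at -2.67 ± 0.3.

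Of the 20 S phase genes, 12 were called lower than Stem in the tuft libraries, 18 in enterocytes and 17 in EECs, and none in AbsPro or SecPDG. Against AbsPro, 15 were lower in enterocytes, and against SecPDG none in tuft cells. Mcm5, a subunit of the replicative helicase, had 3195, 2942 and 2262 in Stem and 269, 270, 260, 381 and 277 in enterocytes (-3.26 ± 0.34, adjusted p = 6.2e-11). Mcm6, of the same helicase, was at -3.39 ± 0.33, and Pcna, the polymerase clamp, at -2.6 ± 0.33. Of the cyclins of S phase entry, Ccne1 had the largest decrease of the list in tuft cells (-1.73 ± 0.38, 5.3e-04), and Ccne2 was not called in enterocytes (-1.38 ± 0.47, 0.011). Gins1 was at 0 in both EEC libraries. The median log2 fold changes of this list and of the histone genes are given in that order. Against Stem they were -0.96 and -0.98 in AbsPro, -0.55 and 0.19 in SecPDG and -1.16 and -1.44 in tuft cells. In enterocytes they were -2.64 and -2.81, and in EECs -3.18 and -3.46. Enterocytes against AbsPro had -1.61 and -1.73, and tuft cells against SecPDG -0.64 and -1.58, with -0.12 over all genes in the latter. The differences between the lists were not tested.

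Of the 12 replication-independent histone variants, 11 had a mean of at least 50. Against Stem none was called in AbsPro or SecPDG, and 2 were lower in tuft cells (H2afv and Cenpa), 5 in enterocytes (H2afx, H2afy, H1f0, H1fx and Cenpa) and 6 in EECs. In enterocytes against AbsPro 4 were lower (H2afx, H2afy, H1f0 and Cenpa), and in tuft cells against SecPDG 1 was (H2afx, -1.1 ± 0.27, 0.0056). H3f3b, which encodes H3.3, had 6633, 7032 and 6925 in Stem and 2440, 3204, 4091, 5884 and 7549 in enterocytes and was called in no comparison (-0.57 ± 0.35 in enterocytes, adjusted p = 0.15). H2afj was not called anywhere either (0.17 ± 0.39, 0.72). H2afz missed the threshold in enterocytes (-0.87 ± 0.38, 0.044) and was called in EECs (-2.57 ± 0.68, 0.0017), H1f0, a linker histone of resting cells, fell in enterocytes (-1.12 ± 0.34, 0.0046), and H2afx had the largest decrease there (-2.93 ± 0.32, 2.8e-10). H1fx was the variant called higher, in EECs (2.32 ± 0.48, 9.2e-05), with 136 and 1115 in the 2 libraries and 171, 74 and 155 in Stem, so that the rise came from EEC 2.

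**Figure D5:**
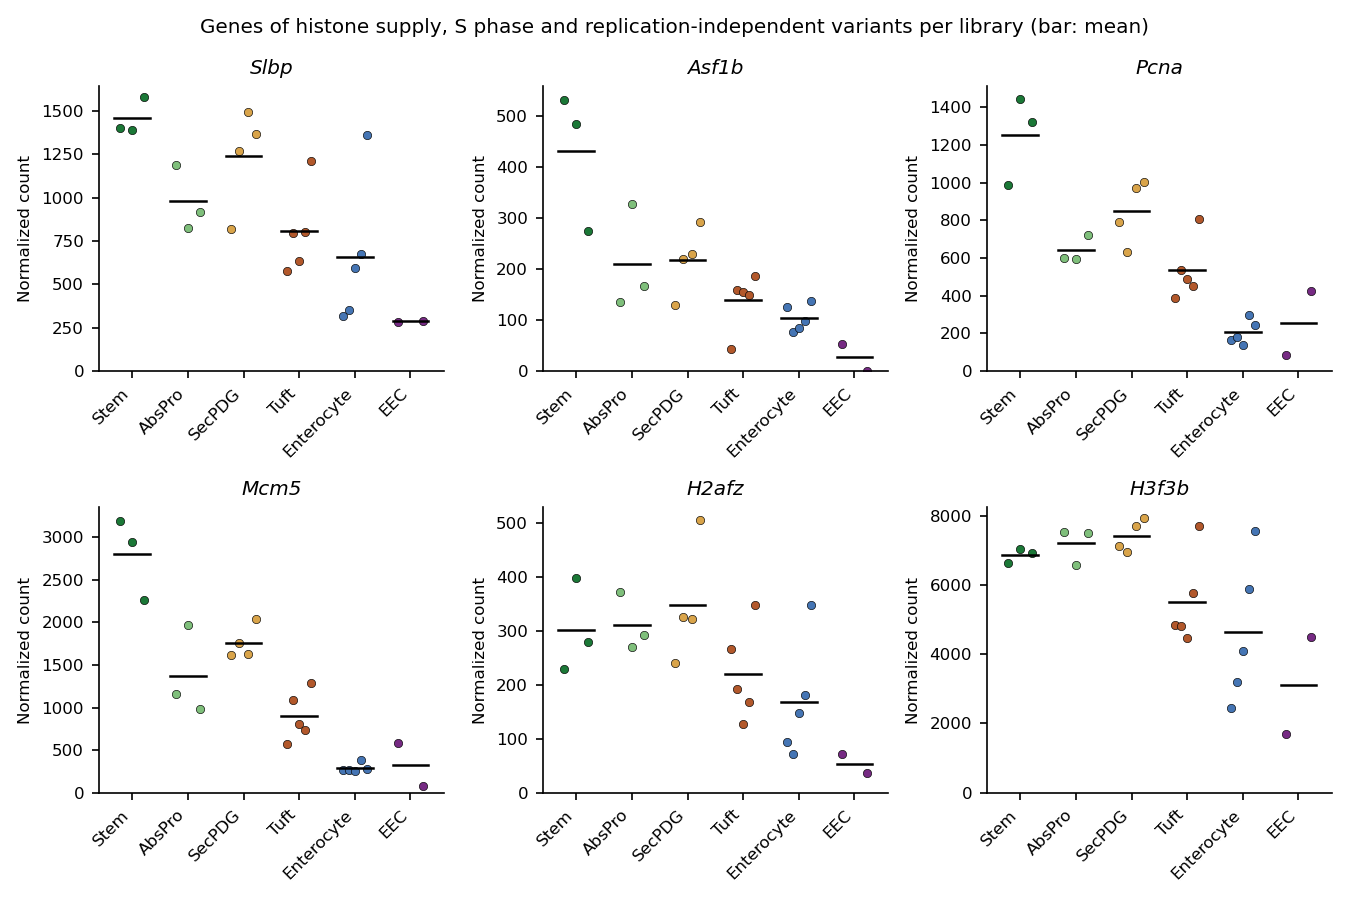
Normalized counts of Slbp, Asf1b, Pcna, Mcm5, H2afz and H3f3b in each library (points) of the 6 cell types, with the mean as a bar. Mcm5 is at 260 to 381 in enterocytes and 2262 to 3195 in Stem, whereas H3f3b in enterocytes (2440 to 7549) overlaps Stem (6633 to 7032).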

How the data were processed

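The deposited files hold raw read counts per gene and library, which the authors made with STAR 2.5.2a on mm10, SAMtools 1.3 and HTSeq 0.6.1p1 without strand. Multimapped reads were not counted, and 5 rows per file that name no gene were left out: these hold the reads outside genes, given above. The histone genes and gene lists were chosen with earlier results of these data known. The test was edgeR 4.0.16's quasi-likelihood test, run in R 4.3.3 (filterByExpr, TMM, glmQLFit and glmQLFTest, cell type as the only term). The version 4 form of that test (legacy = FALSE) was used, not the package's default older form. This was settled after the histone counts from both forms had been seen, to match earlier processing of these data, and the older form's counts stand beside the results that change. DESeq2 1.42.0, 2 other scalings, no filter, a replicate block, 2 cell types alone, other thresholds and leaving out each library were the alternatives.

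Genes named were the 3 highest of each histone type, the 3 called members with the largest change in each comparison, the somatic H1, germ cell and polyadenylated members, members of small counts and set genes of each list. Hist1h2bg and Hist1h2bk, outside this rule, were named after their values were seen, for the window they share with named genes. Replicates come from independent mice and sorts per the study's methods. Deviations of same-numbered libraries correlated at -0.432 to 0.394 over 44 pairs (9 over 0.1). Those of differently numbered libraries correlated at -0.5 to 0.58 over 154 pairs (38 over 0.1). Numbers were therefore not taken as pairs, but this check cannot tell whether mice were shared across cell types. On simulated counts, the test recovered 0 of 100 genes changed 2-fold and 26 of 100 changed 4-fold between AbsPro and Stem, over 22008 genes, and 5 and 55 of 100 between enterocytes and Stem, over 22033. No other genes were changed there, whereas the real enterocyte comparison called 2614 genes lower and 2446 higher. The adjusted p is stricter with few changed genes, so the simulated enterocyte counts do not carry over to that comparison.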

Additional observations from a re-analysis of the deposited data

Results flagged for a closer look

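In 84 groups of 4 or 5 libraries examined, the highest value stood far from the others in 6 of them. Chance flags about 1 in 20 groups. Hist2h2ac stood at 2588 normalized counts in Tuft 5, next to 866 in the nearest tuft library, and Hist3h2a at 433 next to 284 in the same library, which had the smallest share of reads outside genes among tuft libraries. Hist1h1a stood at 520 next to 152 in Enterocyte 4, and Hist1h1b at 619 next to 210 in that library. Hist1h2aa stood at 3.73 in SecPDG 2 and Hist1h2ba at 0.979 in SecPDG 4, with 0 in the other SecPDG libraries. Values so near 0 rest on very few reads, which can stand apart from 0 in any such group. The rate of 1 in 20 need not hold for them.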

How the results depend on the processing

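No member was called higher under any alternative but one: without a minimum mean, 2 were called higher in enterocytes (Hist1h1t and Hist1h2aa) and 1 in EECs (Hist1h2aa) against Stem. Members called lower in AbsPro (0) became 3 with DESeq2 size factors and 3 with library totals (Hist1h2ag, Hist1h3c, Hist1h3f), 1 with no filter (Hist1h3c), 2 with the replicate block and 2 at an adjusted p under 0.05 (Hist1h2ag, Hist1h3c), and 10 with the 2 cell types alone. Leaving out a library gave 0 to 1 (1, Hist1h3h, without AbsPro 2). The 38 in tuft cells became 9 with DESeq2 and 4 with the older quasi-likelihood form, also 4 when robust, and 15 (without Stem 2) to 48 (without Tuft 5) with a library left out. The 39 in enterocytes against AbsPro became 21 with DESeq2, 22 with its size factors, 24 with library totals, 23 with the older form, 18 when robust, and 15 (without AbsPro 2) to 43. The 43 in tuft cells against SecPDG became 17 with DESeq2, 26 with its size factors, 22 with library totals, 4 with the older form, 4 when robust, and 17 (without SecPDG 4) to 48. The cause was not tested. The 49 in enterocytes and 46 in EECs stayed within 1.5 times under the alternatives (47 to 50 and 40 to 46 with a library left out). The replicate block gave 51 in tuft cells, 51 in enterocytes, 48 in EECs, 49 in enterocytes against AbsPro, 49 in tuft cells against SecPDG and 0 in SecPDG. The numbers were not taken to pair the libraries, as given in the methods. Sums in enterocytes relative to Stem ranged, with a library left out, from 0.196 to 0.252 (H1), 0.115 to 0.189 (H2a), 0.177 to 0.29 (H2b), 0.0845 to 0.122 (H3) and 0.177 to 0.241 (H4). Of 3295 values of named genes under alternatives, 2890 kept their side of the threshold, 333 lost a call, 72 gained one and none of the called ones changed sign, while 82 of 1544 uncalled ones did. With 2 EEC libraries and 4122122 counts in EEC 1, low members are least certain there.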
